A study of Mus musculus with 2 samples.

Results

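The cells described here are the Lbx1-positive precursors of the E9.5 mouse somite library, which carry transcripts of both Lbx1 and Pax3. They were chosen from the 9851 E9.5 cells that had at least 200 and fewer than 6500 genes and less than 15% mitochondrial UMIs. A UMI is a unique molecular identifier, a random tag that lets the PCR copies of 1 transcript be counted once. A chosen cell had at least 1 UMI of Lbx1 and 1 of Pax3, and none of Sox2 or Elavl3, which mark neural cells and neurons, or of Myf5, the first muscle determination gene of the somite. This left 140 cells, 1.42% of the E9.5 cells kept, out of 19446 cells kept in both libraries. The comparison cells were 946 cells (9.60%) of the same library with at least 1 UMI each of Pax3 and of the somite gene Meox1, and none of Lbx1, Sox2 or Myf5.

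Inter-limb somites were dissected from wild-type C57BL/6 embryos, those of 3 embryos were pooled at each of E9.5 and E11.5, and the cells were freed with trypsin and captured in droplets. Each stage is 1 library, with 149368952 UMIs in 10121 barcodes at E9.5 and 136655763 UMIs in 10167 barcodes at E11.5. Cells of a pool cannot be assigned to an embryo and are not replicates, so no test between groups was possible and none is given. Levels are UMIs of a gene per 1000000 UMIs of a group of cells (UPM), log2 ratios compare the UPM of 2 groups, and every interval is an exact 95% interval that covers counting error only. The libraries shared 30 barcodes (0.296% of the E9.5 barcodes), and none of these belonged to an Lbx1-positive precursor.

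Skeletal muscle of the trunk and limbs comes from the dermomyotome, the epithelial sheet that forms from the dorsal part of each somite and expresses Pax3. At certain axial levels, cells of its ventrolateral (hypaxial) lip switch on the homeobox gene Lbx1, leave the epithelium and migrate as muscle precursors into the limb buds, the diaphragm and the tongue. Detachment needs Met, the receptor of hepatocyte growth factor, with its docking protein Gab1, and the precursors switch on muscle determination genes only after they have arrived.

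Lbx1, a homeobox factor required for the lateral migration of limb muscle precursors (chromosome 19, 45232684 to 45235812, minus strand, GRCm38 assembly), was found in 209 of the E9.5 cells kept (2.12%). Of these, 178 also held Pax3 (chromosome 1, 78101267 to 78197134, minus strand), the paired-box factor that acts above Met and Lbx1. Sox2, Elavl3 or Myf5 removed 38 of them, 15 through a single UMI, so that the edge of the gate rests on very few molecules. Lbx1 per precursor ran from 1 to 14 UMIs with a median of 2, and 42 of the 140 cells passed with a single UMI. Together the precursors held 423 of the 553 Lbx1 UMIs among the E9.5 cells kept (76.5%). Pax3 ran from 1 to 20 UMIs with a median of 5, against a median of 2 in the comparison cells, and 15 precursors passed with 1 Pax3 UMI. These values chose the cells and are given as a description: Lbx1 stood at 166 UPM (150 to 182) and Pax3 at 333 UPM (311 to 356) against 203 UPM in the comparison cells.

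The precursors had a median of 15274.5 UMIs per cell, from 2387 to 55806, and 3918.5 genes, close to the 14293.5 UMIs and 3713.5 genes of the comparison cells. The name of muscle precursor rests on Lbx1 and Pax3, which the rule used, and Met is the only further marker in it. Whether the gate also holds Lbx1-positive cells of another lineage was not tested, and the levels of Kdr, Etv2 and Hopx given below are those of all 140 cells together. Myod1, Myog, Myl1 and Chrna1, genes of committed or differentiating muscle, had no UMI in any of the 140 cells, which allows up to 2.14% of cells with a UMI, not a limit on cells that express the gene, and a level of up to 1.18 UPM. The intermediate filament gene Des was present at 62 UMIs in 33 cells, and the whole list of differentiating muscle genes stood at 34.9 against 27.9 UPM, with an interval of the ratio that held no difference. Meox1, part of the rule for the comparison cells, stood at 293 UPM in the precursors, 17 of which had none, and at 505 UPM in the comparison cells.

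**Figure D1:**
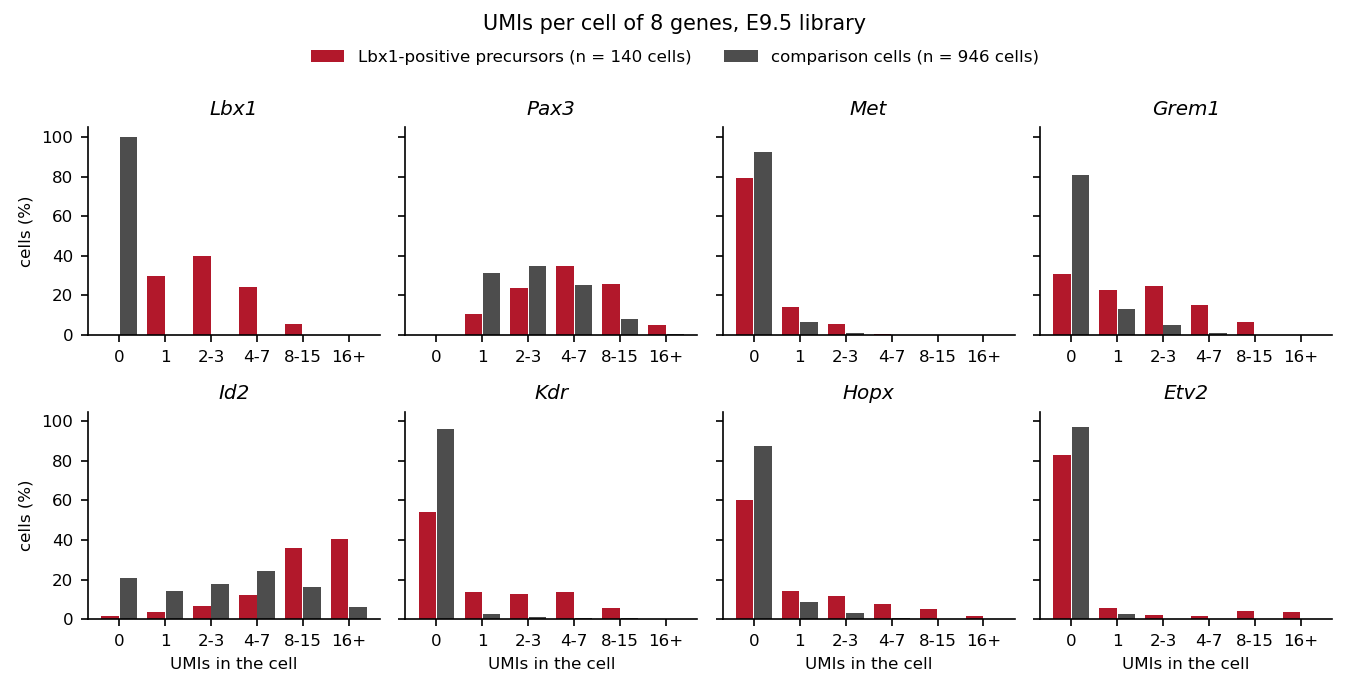
Share of cells (y axis, percent) by the number of UMIs of a gene in the cell (x axis) for 8 genes, in the 140 Lbx1-positive precursors (red) and the 946 comparison cells (grey) of the E9.5 library; Lbx1 and Pax3 were used by the rule. Id2 had a median of 14 UMIs in the precursors, Grem1 of 1, and most precursors had no Met, Kdr, Hopx or Etv2 UMI.

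Between the precursors and the comparison cells, 8695 genes with at least 100 UMIs in both groups together and outside the rule could be compared. Of these, 50 were at least 2-fold higher in the precursors (0.575%) and 144 at least 2-fold lower (1.66%), and the median log2 ratio over all of them was -0.02. The whole interval lay above 2-fold for 21 of the higher genes and below 2-fold for 40 of the lower genes. The genes with the highest lower bounds included the vascular receptor gene Kdr, the ETS factor gene Etv2, the homeodomain-only gene Hopx, and the BMP pathway genes Grem1 and Id2. Those with the lowest upper bounds were led by neural crest genes, genes of the newest somites and Hox genes of the posterior trunk.

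Met (chromosome 6, 17463800 to 17573980, plus strand) was higher in the precursors but present in a minority of them. It ran from 0 to 4 UMIs per cell with a median of 0, and 29 of the 140 precursors had at least 1 UMI (20.7%, 14.3% to 28.4%). In the comparison cells 7.29% had one, and in neural cells of the same library, taken as those with at least 2 Sox2 UMIs, with a median of 13051 UMIs per cell, 2.52% did. After each cell was thinned at random to 5000 UMIs, the shares with a Met UMI were 7.91% and 2.13% in the precursors and the comparison cells. The level was 16.1 UPM (11.5 to 21.8) against 4.96 UPM (3.91 to 6.21), a log2 ratio of 1.70 (1.11 to 2.26). Thus the groups lay apart by more than counting error, on 41 UMIs in the precursors. Without the cells of either group that held 2 or more UMIs of another tissue's markers, Kdr and Ets1 included, the ratio was 0.06, and with those 2 genes not counted it was 1.57.

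Met led a list of 19 hypaxial and migratory precursor genes, of which 13 had enough UMIs to compare. In this list 3 genes were at least 2-fold higher and 2 at least 2-fold lower, the median log2 ratio was 0.57, against 0.575%, 1.66% and -0.02 over all genes compared, and the summed level was 547 UPM against 447 UPM. Gab1, the docking protein that relays the Met signal, stood at 20.8 against 10.0 UPM (log2 ratio 1.05, 0.57 to 1.51). The homeobox gene Msx1, whose product holds back myogenic differentiation, had a log2 ratio of 1.00 (0.58 to 1.41), which was 0.39 against comparison cells with or without Meox1, 0.46 with at least 2 Lbx1 UMIs and 2.51 without the cells that held other-tissue markers.

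Several transcription factor genes of the list were higher by less than 2-fold. Sim1, a bHLH-PAS factor of the ventrolateral dermomyotome, was found in 50 precursors and stood at 29.0 against 15.1 UPM (log2 ratio 0.94). Eya1, a transcriptional cofactor of muscle precursors, stood at 53.3 against 30.9 UPM, with a log2 ratio of 0.79. Dach1, which encodes a nuclear cofactor, had a log2 ratio of 0.73 and the homeobox gene Six4 one of 0.46. Meox2, a limb muscle homeobox gene, was at 103 and 96.9 UPM, and its interval held no difference.

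The genes of the list that were at least 2-fold lower were Cxcr4 and Dmrt2. Cxcr4, the chemokine receptor of migrating precursors, had 4 UMIs in 4 of the precursors and 113 UMIs in the comparison cells, a log2 ratio of -2.23 (-4.13 to -0.84), so few precursors held it at this depth. Dmrt2, a gene of the early dermomyotome, stood at 29.0 against 64.3 UPM (log2 ratio -1.15). Over the alternatives the ratio of Dmrt2 ran from -1.65 to -0.82. It fell short of 2-fold in some of them, such as -0.97 against comparison cells with or without Meox1. Pax7, which marks the central dermomyotome, had 5 UMIs in the precursors and 60 in the comparison cells, and its interval held 0. Tcf15, a bHLH gene of epithelial somites, stood at 244 against 375 UPM (log2 ratio -0.62), and the central dermomyotome gene En1 had no UMI in the precursors and 5 in the comparison cells. Without the genes of the rule, the dermomyotome list stood at 407 against 555 UPM.

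**Figure D2:**
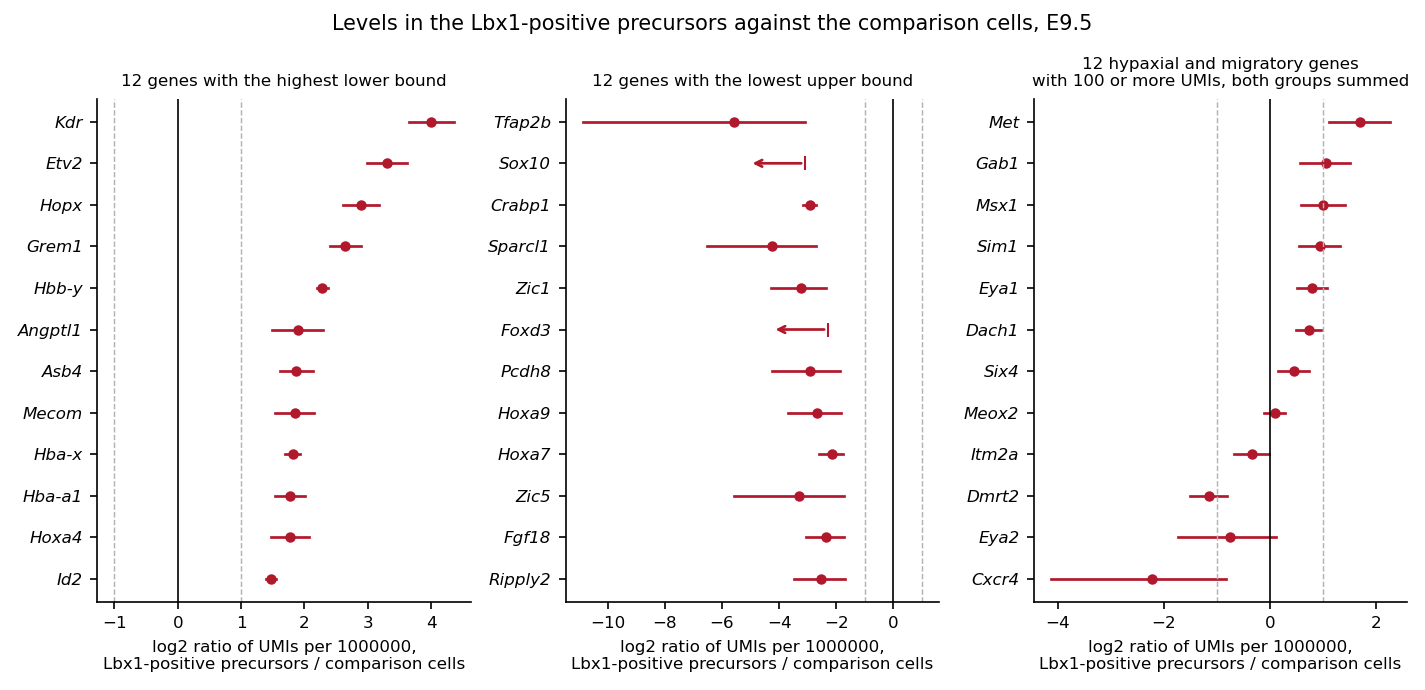
Log2 ratio of UPM in the 140 Lbx1-positive precursors over the 946 comparison cells (x axis; points with exact 95% intervals, counting error only) for the 12 genes with the highest lower bound, the 12 with the lowest upper bound, and 12 hypaxial and migratory genes with at least 100 UMIs; dashed lines mark 2-fold, and arrows start at the upper bound of genes with no UMI in the precursors. Kdr stood highest at 4.00, Met headed the hypaxial list at 1.70, and Cxcr4 was its lowest gene at -2.23.

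Grem1 and Id2 were higher in the precursors and present in most of them. Grem1, a secreted antagonist of bone morphogenetic proteins (chromosome 2, 113746164 to 113758646), ran from 0 to 11 UMIs per precursor with a median of 1. It was found in 97 precursors (69.3%, 60.9% to 76.8%) against 19.2% of the comparison cells and 2.18% of the neural cells, and in 41.0% against 7.13% of precursors and comparison cells thinned to 5000 UMIs. Its level was 116 UPM (103 to 130) against 18.5 UPM, a log2 ratio of 2.65 (2.41 to 2.89), or 6.26-fold.

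Id2, an inhibitor of bHLH factors and a common target of BMP signals (chromosome 12, 25093799 to 25097140), ran from 0 to 50 UMIs with a median of 14. All but 2 precursors held it (98.6%), against 79.0% of the comparison cells, and the 2117 UMIs give 830 UPM (795 to 866) against 299 UPM, a log2 ratio of 1.47 (1.40 to 1.55). Its relatives Id3 and Id1 were higher by less, with log2 ratios of 0.72 (821 against 500 UPM) and 0.35. Over the BMP and TGF-beta list 10 genes could be compared, of which 2 were at least 2-fold higher, Grem1 and Id2, and 1 was at least 2-fold lower, Tgfb2 (log2 ratio -1.25), with a median log2 ratio of 0.27 (over all genes compared, 0.575% and 1.66% and a median of -0.02). The ligand genes Bmp4 and Bmp7 had 1 and 2 UMIs in the precursors, and the receptor gene Bmpr1a differed by less than counting error, with a log2 ratio of -0.13 (-0.40 to 0.14).

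Kdr, which encodes the main VEGF receptor of endothelial cells and their progenitors (chromosome 5, 75932827 to 75978458), had the highest ratio among the genes with at least 100 UMIs. It ran from 0 to 15 UMIs per precursor with a median of 0, and 64 precursors held it (45.7%, 37.3% to 54.3%) against 4.02% of the comparison cells and 2.86% of the neural cells. At 99.2 UPM (87.3 to 112) against 6.20 UPM (5.01 to 7.58), the log2 ratio was 4.00 (3.65 to 4.36), or 16-fold. No single cell carried it: the 10 cells with the most Kdr held 41.5% of its UMIs, and 30.9% of the precursors against 2.02% of the comparison cells kept a Kdr UMI after thinning.

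Etv2, an ETS factor that starts blood and endothelial development (chromosome 7, 30633616 to 30635852), was carried by fewer cells. Its 224 UMIs lay in 24 precursors (17.1%), with 53 in 1 cell (23.7% of them) and 85.3% in the 10 highest, against 3.07% of the comparison cells. The level was 87.8 against 8.87 UPM, a log2 ratio of 3.31 (2.99 to 3.63). Hopx, an atypical homeobox gene without DNA binding (chromosome 5, 77086988 to 77115121), was found in 56 precursors (40.0%) against 12.7% of the comparison cells, from 0 to 28 UMIs per cell. It stood at 92.1 against 12.4 UPM, a log2 ratio of 2.89 (2.61 to 3.18).

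The other endothelial markers were found in few precursors. Of 7 endothelial genes, Kdr gave 253 of the 318 UMIs, and the summed level was 125 against 16.8 UPM. Cdh5, the cadherin of endothelial junctions, had 15 UMIs in 3 precursors, and Pecam1 had 3 UMIs in 1. Tie1 had 3 UMIs, Tek 6, Cldn5 15 and Emcn 23. These 6 genes together gave 65 UMIs, 25.5 UPM against 10.6 UPM in the comparison cells (log2 ratio 1.26, 0.82 to 1.68), and lay in 7 precursors (5.00%) against 34 comparison cells (3.59%), with 41 and 16 of the UMIs in 2 cells that each had a single Lbx1 UMI. Without every cell of either group that held a UMI of them, 133 precursors and 912 comparison cells were left, with Kdr at a log2 ratio of 4.78, Etv2 at 3.81, Hopx at 2.74, Grem1 at 2.71, Met at 1.59 and Lmo2, a cofactor of blood and endothelial development, at -0.63. In the 224 cells of the library with both a Cdh5 and a Pecam1 UMI, taken as endothelial, Cdh5 stood at 468 UPM against 5.88 UPM in the precursors, Kdr at 375 UPM and Lbx1 at 0.48 UPM, in 2 cells. Etv2 stood at 18.8 UPM and Hopx at 7.13 UPM in the endothelial cells, both below the precursors, and Grem1 at 0.95 UPM.

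**Figure D3:**
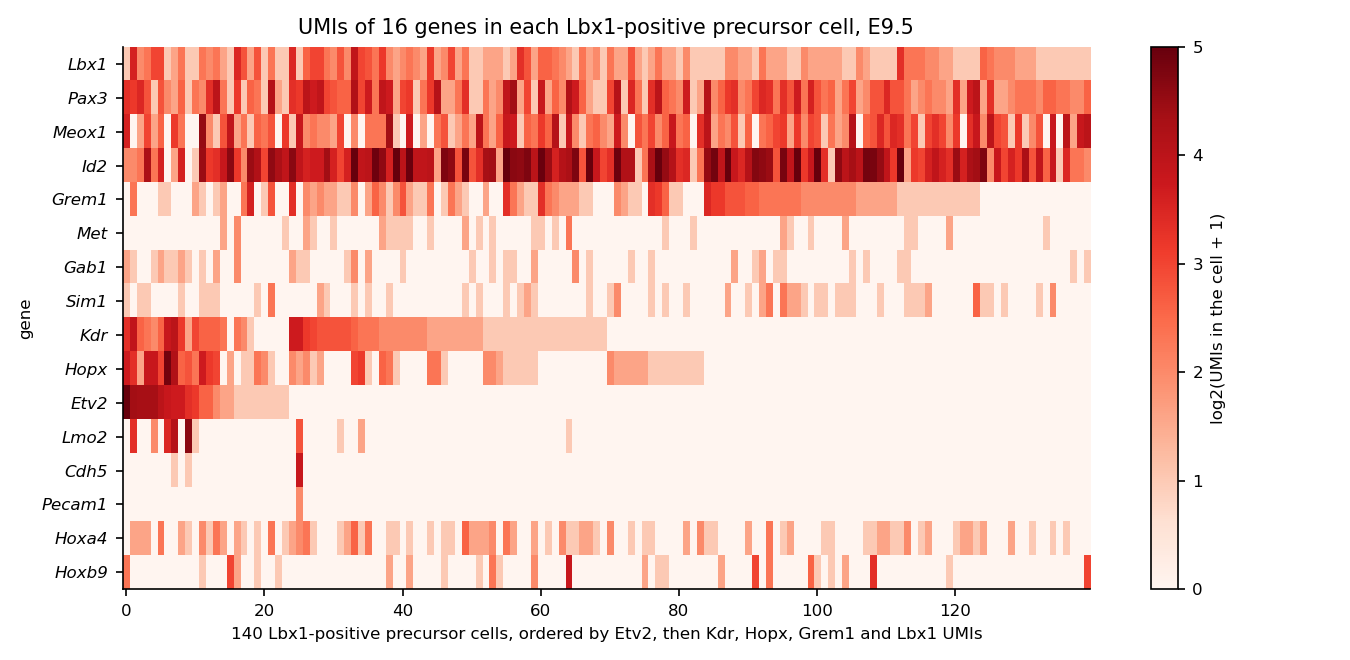
UMIs of 16 genes (rows) in each of the 140 Lbx1-positive precursors (columns), on a log2(UMIs + 1) colour scale, with cells ordered by Etv2, then Kdr, Hopx, Grem1 and Lbx1. The 24 cells with Etv2 stand at the left, Kdr reaches well beyond them to 64 cells, and Cdh5 and Pecam1 are nearly empty rows.

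Markers of other tissues were counted over whole lists. The neural list gave 113 UMIs in the precursors (44.3 against 57.0 UPM in the comparison cells), led by Nes with 61, and the neuron list 77 UMIs (30.2 against 51.5 UPM), led by Elavl2 with 29. The rule excluded Elavl3 from the precursors only. Without the 16 comparison cells that held Elavl3, the log2 ratio of the neuron list was -0.43, against -0.77 with them. The neural crest list gave 163 UMIs (63.9 against 104 UPM), of which Ets1 gave 155, with the defining genes Sox10 and Foxd3 at 0. Surface ectoderm genes gave 16 UMIs (6.27 against 27.5 UPM), and Cdh1 and Tfap2a were at 0. The sclerotome list stood at 284 against 450 UPM, led by Fbn2, and Nkx3-2 was at 0 in both groups. For lateral plate and limb mesenchyme the levels were 153 and 175 UPM, led by Prrx2 with 255 of 389 UMIs, for intermediate mesoderm 26.7 and 23.5 UPM, and for newly formed somite 28.6 and 80.0 UPM.

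Blood genes stood higher in the precursors, at 1284 against 342 UPM, and 1 barcode carried nearly all of them. This cell was the deepest of the precursors, with 55806 UMIs and 6478 genes, and 5.94% of its UMIs were globin. It held 1761 of the 1787 Hbb-y UMIs, 988 of the 1001 Hba-x UMIs and 238 of the 239 Hba-a1 UMIs, and the next cell had 0.0645% globin. The log2 ratios of 2.28 for Hbb-y, 1.81 for Hba-x and 1.78 for Hba-a1 became 0.14, -0.11 and -1.29 without the barcodes above 1% globin, 1 among the precursors and 3 among the comparison cells. Kdr and Grem1 stood at 4.00 and 2.67 without these barcodes. Scrublet, which marks likely doublets, did not call this barcode but called 2 of the 3 globin-rich comparison barcodes, and without all of its calls the log2 ratio of Hbb-y was 4.75.

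Cells with 2 or more UMIs of any neural, neuron, neural crest, endothelial, blood or surface ectoderm list made up 85 of the precursors (60.7%) and 430 of the comparison cells (45.5%), and most of the 85 were counted through Kdr or Ets1. With those 2 genes left out of the lists, the numbers were 41 (29.3%) and 346 (36.6%). Removing the 41 and 346 cells left Kdr at a log2 ratio of 4.58, Etv2 at 3.63, Hopx at 2.56, Grem1 at 2.72 and Met at 1.57. Removing all 85 and 430 cells, a step that takes out every cell with 2 or more Kdr UMIs, left Grem1 at 2.70 and Id2 at 1.67 but Hopx at 0.76, Gab1 at 0.09 and Met at 0.06.

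Asb4, Mecom, Angptl1 and Hoxa4 completed the 12 genes with the highest lower bounds. Asb4, which encodes an adaptor of a ubiquitin ligase (chromosome 6, 5383386 to 5433022), was found in 84 precursors (60.0%) against 189 of the 946 comparison cells, at 81.2 against 22.1 UPM (log2 ratio 1.88). The zinc finger factor gene Mecom was found in 50.7% against 18.3%, at 56.5 against 15.7 UPM (log2 ratio 1.85). Angptl1, a secreted angiopoietin-like protein, was found in 32.1% against 9.94%, at 32.5 against 8.74 UPM (log2 ratio 1.90). Asb4, Mecom and Angptl1 were each carried by many cells, with 35.7%, 31.9% and 45.8% of their UMIs in the 10 highest.

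Neighbouring gates of the E9.5 library gave the same genes with and without Lbx1. In 16 cells with Lbx1, Pax3 and Myf5, which were deeper (median 25358 UMIs), Grem1 stood at 74.4 UPM (51.2 to 105), Id2 at 638 UPM and Met at 13.5 UPM (4.97 to 29.5). In 364 cells with Pax3 and Myf5 but no Lbx1, Grem1 stood at 16.8 UPM, Id2 at 281 UPM and Met at 3.86 UPM, close to the comparison cells. The 22 cells with Lbx1, Pax3 and Sox2 or Elavl3 had Grem1 at 83.6 UPM and Id2 at 645 UPM, with no Etv2 UMI, which allows up to 13.6% of these cells with a UMI. Thus Grem1 and Id2 were higher in each of the 3 gates with Lbx1 and Pax3 than in the 2 Pax3 gates without Lbx1, and the intervals did not overlap.

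Cells with Lbx1 but no Pax3 had another profile. In these 27 cells Kdr stood at 162 UPM (125 to 205), Etv2 at 164 UPM and Cdh5 at 50.6 UPM (31.4 to 77.4), and Lmo2 stood at 157 UPM. Grem1 was at 36.2 UPM, in 3 cells, Id2 at 241 UPM, and Met had 1 UMI. Lbx1 itself was found in 0.77% of the neural cells, 0.74% of the sclerotome cells with Pax1 and Pax9, and 0.89% of the endothelial cells, whose median depths were 13051, 14194.5 and 16348 UMIs.

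**Figure D4:**
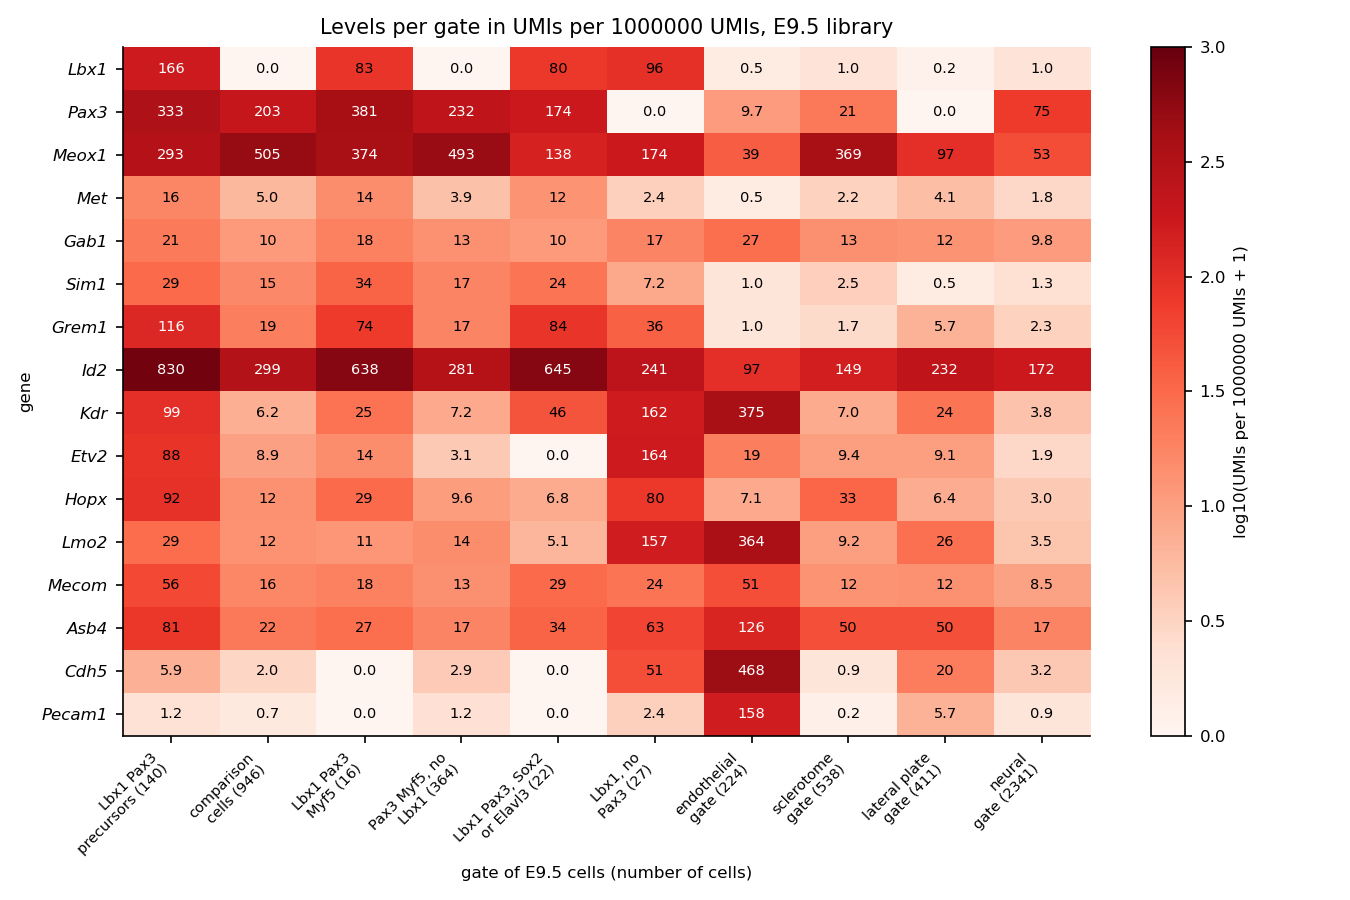
Levels of 16 genes (rows) in 10 gates of E9.5 cells (columns, number of cells in parentheses), with the UPM printed in each field and a log10(UPM + 1) colour scale. Grem1 and Id2 are darkest in the 3 gates with Lbx1 and Pax3, Kdr is dark in the precursors, in the Lbx1 cells without Pax3 and in endothelial cells, and Cdh5 and Pecam1 are dark in endothelial cells.

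The lowest genes were led by markers of the neural crest, some of whose cells also express Pax3. Tfap2b had 1 UMI in the precursors and 286 in the comparison cells, and Sox10 had 0 and 189. Against a floor of 3 UMIs over the precursors, Sox10 was at least 10.5-fold lower and Foxd3, with 0 and 109 UMIs, at least 6.05-fold lower. Of the comparison cells, 60 held Sox10. Crabp1, a retinoic acid binding protein, ran at 65.9 against 498 UPM (log2 ratio -2.92), and without the cells with 2 or more UMIs of Sox10, Foxd3 and Tfap2b, 66 comparison cells and no precursor, its log2 ratio was -0.90.

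Sparcl1, a secreted matrix protein, and Zic1 and Zic5, zinc finger genes of the dorsal somite and neural tube, were lower in the precursors also without those cells. Sparcl1 had 3 UMIs against 343 (log2 ratio -4.25, and -4.30 without the cells with neural crest genes), and Zic1 had 10 against 564 (-3.23 and -3.31). For Zic5 the counts were 3 and 176 UMIs (log2 ratio -3.29). In the cells with like Hox genes described below, Zic5 was -1.39, Zic1 -5.25 and Sparcl1 -4.79. Fgf18, a growth factor of the somite, had 20 UMIs against 612, a log2 ratio of -2.35.

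Genes of the newest somites were also low in the precursors. Ripply2, a repressor at the boundary of each new somite, had 12 UMIs against 413, and all 12 lay in 1 precursor, the globin-rich barcode. Pcdh8, a protocadherin of the same region, had 7 UMIs against 316 (log2 ratio -2.91), all in that same barcode. Neither gene had a UMI in any other precursor. Ripply2 was present in 45 comparison cells.

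Most genes of the Notch pathway were lower in the precursors. Of the 12 that could be compared, none was at least 2-fold higher and 7 were at least 2-fold lower, with a median log2 ratio of -1.22 (over all genes compared, 0.575% and 1.66% and a median of -0.02), while the summed level was the same within counting error (439 against 427 UPM). The receptor gene Notch1 stood at 20.4 against 57.4 UPM (log2 ratio -1.49, -1.93 to -1.09), and the ligand genes Dll1 and Jag1 had log2 ratios of -2.15 and -1.70. The targets Hey1 and Nrarp had log2 ratios of -1.42 and -2.17. Without the cells with 2 or more UMIs of the new somite list (Uncx not counted), 2 precursors and 82 comparison cells, the ratio of Notch1 was -0.78 and that of Dll1 -1.60. In the other direction, Dlk1, a non-canonical ligand, stood at 242 against 152 UPM (log2 ratio 0.67) and Hes1, a common target, at 96.8 against 63.1 UPM (0.62).

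Among Wnt, Fgf, retinoic acid and hedgehog genes, none was at least 2-fold higher in the precursors, near the background of 0.575%, and several were at least 2-fold lower, against 1.66% of all genes compared. Of 14 Wnt genes compared, 2 were at least 2-fold lower, Wnt6, a ligand of the surface ectoderm and dorsal somite (3 against 128 UMIs, log2 ratio -2.83), and Rspo3, a secreted enhancer of Wnt signals (-1.82), and the median was -0.22. Of 10 Fgf genes, Fgf18, Fgf8 (log2 ratio -1.49) and the feedback inhibitor Spry1 (-1.26) were at least 2-fold lower, the median was -0.11, and the target Etv5 stood at 15.3 against 9.26 UPM (0.72). Of 12 retinoic acid and hedgehog genes, Crabp1 and Gli1 (-1.36) were at least 2-fold lower, and the median was -0.12. Gli3, a hedgehog effector, stood at 83.1 against 56.1 UPM (0.57) and the co-receptor gene Boc at 36.9 against 21.2 UPM (0.80).

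Genes of the epithelial to mesenchymal transition did not stand higher in the precursors as a list, at a summed 790 against 1045 UPM. Of 13 compared, none was at least 2-fold higher and 1, Foxc1 (log2 ratio -1.14), was at least 2-fold lower, with a median of -0.46, and over all genes compared these were 0.575%, 1.66% and -0.02. Twist1, a bHLH factor of mesenchyme, stood at 171 against 236 UPM (-0.46), and Snai1 and Zeb1, repressors of epithelial genes, had log2 ratios of 0.04 and 0.06. Of 17 basement membrane and matrix genes compared, none differed by 2-fold and the median was -0.21. For both lists the counts at 2-fold are near the background. The integrin gene Itgb1 stood at 106 against 104 UPM.

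Among 22 guidance receptors and ligands, 16 could be compared, none was at least 2-fold higher and 3 were at least 2-fold lower, with a median log2 ratio of -0.00. Over all genes compared these were 0.575%, 1.66% and -0.02, so that no gene at least 2-fold higher among 16 is near the background. Sema3a, a repellent ligand, was found in 77.1% of the precursors against 39.1% of the comparison cells, at 94.1 against 51.6 UPM (log2 ratio 0.87, 0.65 to 1.08). Nrp2, a semaphorin co-receptor, stood at 137 against 83.5 UPM (0.71), and Slit2, a ligand of Robo receptors, at 20.8 against 11.1 UPM (0.91). The lower genes were the ephrin receptor gene Epha7 (-1.55), the semaphorin gene Sema3c (-1.93) and the endothelin receptor gene Ednrb (-2.39), the last on 4 UMIs.

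Of 12 S phase and 12 G2 and M phase genes, none differed by 2-fold, which is near the background of 0.575% higher and 1.66% lower, and the summed log2 ratios were 0.10 (0.06 to 0.15) and 0.00 (-0.04 to 0.04). Among 7 genes of cell cycle exit and D cyclins, Cdkn1a, an inhibitor of cyclin-dependent kinases, was lower, with 2 UMIs against 103. Its relative Cdkn1c stood at 190 and 188 UPM, and Ccnd1 and Ccnd2 had log2 ratios of -0.18 and -0.19.

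Hox genes, whose order along their clusters follows the body axis, divided by number. Of 15 genes of groups 1 to 5, 3 were at least 2-fold higher in the precursors, Hoxa4, Hoxa5 and Hoxb5, and 1 was at least 2-fold lower, Hoxd1 (log2 ratio -1.79). Of 7 genes of groups 6 to 8, none was higher and 4 were at least 2-fold lower, and all 4 genes of group 9 were at least 2-fold lower, against 0.575% higher and 1.66% lower over all genes compared. No higher gene among 7 is near that background. Hoxa4 was found in 55.0% of the precursors against 18.9% of the comparison cells, at 56.9 against 16.6 UPM (log2 ratio 1.77), and Hoxa5 at 143 against 64.7 UPM (1.14). Hoxb9 stood at 33.7 against 125 UPM (-1.89), Hoxa7 had 49 UMIs against 1313 (-2.16), and Hoxa9 had 11 against 421 (-2.67). With a Met UMI required, which left 29 precursors, Hoxb9 was -0.89, Hoxa7 -1.27 and Hoxa9 -1.56. The summed log2 ratio of group 9 was -2.02 and ranged from -3.16, with cells of 10000 to 20000 UMIs, to -0.98 with Met required.

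Summed by paralogue group, the precursors stood at 316 against 168 UPM for group 4 and 217 against 99.4 UPM for group 5. The order was the opposite from group 6 (51.4 against 73.1 UPM) to group 9 (46.3 against 187 UPM), while group 2 was higher in the precursors (139 against 104 UPM), and groups 1 (56.9 and 62.4 UPM) and 3 (82.7 and 81.0 UPM) were level within counting error. A UMI of group 9 was found in 32 precursors (22.9%, 16.2% to 30.7%) and 57.7% of the comparison cells, and in 12.2% and 43.5% after thinning. A UMI of groups 4 or 5 was found in 94.3% of the precursors and 86.8% of the comparison cells.

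**Figure D5:**
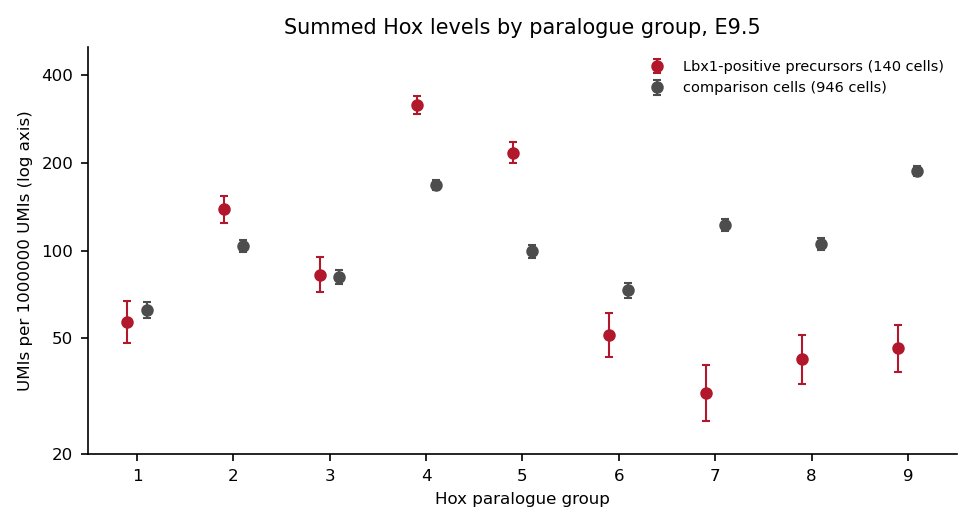
Summed level of the Hox genes of each paralogue group (x axis, 1 to 9) in UPM (y axis, log scale) in the 140 Lbx1-positive precursors (red) and the 946 comparison cells (grey), with exact 95% Poisson intervals. The precursors stand above the comparison cells in groups 4 and 5, and also in group 2, level in groups 1 and 3, and below them from group 6 to group 9.

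To compare cells with like Hox genes, both groups were also limited to cells with a UMI of Hox groups 4 or 5 and none of group 9, which left 102 precursors and 304 comparison cells. In these cells Kdr stood at a log2 ratio of 3.99, Grem1 at 2.32, Hopx at 2.89, Id2 at 1.61 and Met at 1.62, and Notch1 at -0.88. The numbers at least 2-fold higher and lower were then 26 and 41 of the 6146 genes compared. Whether the remaining differences follow axial level was not tested.

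The precursors varied among themselves. Since the rule used Lbx1 and Pax3, and the groups below were set by counts of the cells themselves, these values are descriptions. Lbx1 counts of 4 or more, found in 42 cells, were set beside the 42 cells with 1 UMI, whose median depths were 18516.5 and 17157.5 UMIs. Kdr stood at 159 UPM in the first and 60.4 UPM in the second (log2 ratio 1.40, 0.92 to 1.90), in 71.4% and 23.8% of the cells. The whole endothelial list was at 159 and 132 UPM, since the 6 genes other than Kdr had no UMI in the cells with 4 or more Lbx1 UMIs and 59 UMIs in the cells with 1, mainly in the 2 cells named above. Intermediate mesoderm genes had 6 and 38 UMIs and differentiating muscle genes 14 and 43, while the globin-rich barcode, with 4 Lbx1 UMIs, lay among the first. Pax3 had a log2 ratio of 0.52, while Msx1 had one of -2.84, Cdkn1c of -1.33 and Hox group 9 of -1.99. Met had 16 and 7 UMIs, and the interval of its log2 ratio held 0.

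The 64 precursors with Kdr, with a median of 17300.5 UMIs, were set beside the 76 without, with a median of 14688. Hopx was found in 59.4% and 23.7% of them, and in 35.9% and 14.7% after thinning, with a log2 ratio of 2.81. All 10 precursors with Lmo2 and 18 of the 24 with Etv2 lay among the cells with Kdr. The endothelial genes other than Kdr had 62 and 3 UMIs, and of the 62, 1 cell held 41 and another 16. The blood list had 3262 and 12 UMIs, and the globin-rich barcode, with 5 Kdr UMIs, lay among the first. The neural list was higher in the cells with Kdr (log2 ratio 0.74, 0.17 to 1.32) and the dermomyotome list lower (-0.20, -0.38 to -0.02). Met had 27 and 14 UMIs (log2 ratio 1.04, 0.05 to 2.08) and Gab1 38 and 15 (1.43). Lower in the cells with Kdr were Msx1 (-1.97), Dmrt2 (-1.77), Sim1 (-1.25) and Gas1 (-1.11), while Grem1 (-0.22) and Pax3 (0.10) had intervals that held 0.

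The 24 cells with Etv2 were set beside the other 116 precursors. The globin-rich barcode was 1 of the 24, so that the blood list had 3239 of its 3274 UMIs there. With this barcode included, the G2 and M phase list was higher (log2 ratio 0.42, 0.33 to 0.50). The list of cell cycle exit and D cyclins was also higher (0.40, 0.25 to 0.55), and the interval of the S phase list held no difference (-0.08, -0.19 to 0.03). Hopx stood at 322 against 38.7 UPM, Lmo2 at 131 against 4.83 UPM (63 against 10 UMIs), and Nrp1, a co-receptor of VEGF and semaphorins, at 137 against 25.1 UPM. The endothelial list, led by Kdr, stood at 274 against 89.9 UPM (log2 ratio 1.61, 1.28 to 1.94). The new somite list had 28 against 45 UMIs (1.42, 0.68 to 2.13), 12 of the 28 from Ripply2, all in the globin-rich barcode. This list was not compared between the 24 and the 116 cells without that barcode. Over all precursors against the comparison cells, its log2 ratio went from -1.48 to -1.94 without the globin-rich barcodes. The dermomyotome list was lower, at 301 against 432 UPM. Id2 stood at 505 against 906 UPM (log2 ratio -0.84), Grem1 also at -0.84 and Pax3 at -0.43 (-0.72 to -0.15), and Lbx1 had an interval that held 0. Leaving out the globin-rich barcode gave log2 ratios of 3.12 for Hopx, 4.94 for Lmo2, 2.58 for Nrp1, -0.80 for Id2, -0.71 for Grem1 and -0.29 for Pax3. Without any cell with an Etv2 UMI in either group, the precursors kept a Kdr ratio of 4.34 and a Hopx ratio of 1.83 over the comparison cells, while Lmo2 went from 1.25 to -1.09. The 29 cells with Met held 4 of the 224 Etv2 UMIs and had Kdr in 62.1% of cells against 41.4% of the other precursors. They had more Notch1 (log2 ratio 1.58) and Hoxb9 (1.44). Their neural list stood at 82.1 against 34.2 UPM (1.26, 0.68 to 1.83). The neural crest list, led by Ets1, stood at 104 against 53.1 UPM (0.98, 0.48 to 1.46). The blood list had 12 UMIs in the cells with Met and 3262 in the others. Nearly all of the 3262 lay in the globin-rich barcode, which had no Met UMI.

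At E11.5 the same rule gave 12 cells, 0.125% of the 9595 cells kept, with a median of 13226.5 UMIs and 155847 UMIs in all. Stage and library cannot be told apart here, and so few cells limit every value. Lbx1 was found in 93 cells and with Pax3 in 34. Genes of differentiating muscle stood at 7642 against 34.9 UPM at E9.5 (log2 ratio 7.77), led by Actc1 with 334 UMIs in 3 cells. Myod1 had 61 UMIs in 7 of the 12 cells, and Myog had 132 UMIs in 5, of which 1 cell held 89 and another 39. Kdr, Etv2 and Hopx had no UMI, which for 12 cells of this depth allows up to 19.2 UPM, and Grem1 had 1 UMI. Id2 stood at 282 UPM, against 830 UPM at E9.5 (log2 ratio -1.56). Hox groups 10 to 13 had 33 UMIs, led by Hoxc10 with 16 in 4 cells, against 14 UMIs in the 140 precursors of E9.5.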

How the data were processed

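Per the labels and the methods, the authors aligned reads to mm10 with Cell Ranger 3.0.1; the deposited values are raw UMI counts per gene and barcode. Counts were read with Python 3.11.15 (numpy 2.4.6, scipy 1.17.1, pandas 2.3.3), filtered as the study did, and summed per group. Intervals are exact: Poisson for levels, conditional binomial for ratios, Clopper-Pearson for shares. Thinning used 5000 UMIs per cell, and 1 precursor and 6 comparison cells were shallower and left out of it. Doublets were not removed beyond the limit of 6500 genes per cell; Scrublet in scanpy 1.11.5 called 5 precursors and 55 comparison cells, removed in an alternative. The ratio intervals were run on simulated Poisson counts, the kind of error they assume. That run did not include UMIs clumped in few cells. Positions are GENCODE M21 on GRCm38, and plots used matplotlib 3.10.9.

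Named genes are the rule genes, every gene of fixed lists (pathways, cell type markers), and the 12 genes with the highest lower and the 12 with the lowest upper bound of the interval. Lmo2 and other genes outside this rule were picked with their values in view. A gene of the hypaxial list, counted in its totals, is not reported here. The members, lists and rules were chosen with earlier results of these data known. Alternatives on globin, neural crest, new somites, Hox level, Etv2 and other tissues without Kdr and Ets1, endothelial genes other than Kdr, and the Kdr and Etv2 splits, were added after seeing the data.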

Additional observations from a re-analysis of the deposited data

How the results depend on the processing

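With 1 library per stage, no interval covers variation between embryos or libraries. Of 678 alternative values for 40 genes, 540 moved by less than counting error, 114 moved further and 24 were counted as reversed. Of 491 values for lists, 371 moved by less than counting error and 5 were counted as reversed. These counts do not hold every change of sign. Without cells with 2 or more UMIs of another tissue, Des went from 0.97 to -0.47 and the retinoic acid and hedgehog list from -0.35 to 0.27. With Met required, the neural list went from -0.36 to 0.53. Other lists also changed sign in some alternatives. Grem1 ranged from 2.32 to 3.03, Id2 from 1.40 to 1.67, Kdr from 3.60 to 4.78 and Met from 0.06 to 2.00 on the log2 scale. The range of Kdr leaves out the removal of cells with 2 or more UMIs of another tissue, since that step selects on Kdr. That removal gave Met its 0.06, and the range of Met leaves out the setting that required a Met UMI. No paired analysis was possible because each stage has 1 library. Scrublet made no call at E11.5, so that alternative was not run there. Causes were not tested.

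The numbers at least 2-fold higher and lower (50 and 144 of 8695 genes) became 33 and 87 of 5641 with thinned cells, 144 and 440 of 8459 with a Met UMI required, 26 and 41 of 6146 in cells matched by Hox genes, 98 and 269 of 9942 with at least 50 UMIs per gene, 413 and 613 of 12097 with at least 10, and 217 and 429 of 8695 at 1.5-fold; 26 of 6704 were higher without the cells with 2 or more UMIs of another tissue. Thinning left fewer genes to compare.

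The globin genes rested on 1 barcode, and their log2 ratios reversed in many of the alternatives in which it lost weight, but not in all: Hbb-y was 0.07 thinned, 0.44 with cells weighted equally and 0.14 without globin-rich barcodes, and Hba-x was 0.62 matched by Hox genes. Thinned, Hba-x was -0.26, Hba-a1 -0.050 and the blood list -0.19. With cells of 10000 to 20000 UMIs, Hbb-y was -4.60, Hba-x -4.50, Hba-a1 -5.80 and the blood list -4.74. With each cell weighted equally, Hba-x was -0.10 and Hba-a1 -0.13. With Met required, Hbb-y was -3.46, Hba-x -4.90 and the blood list -3.93, and Etv2 was -0.25 and Lmo2 -2.69. Without globin-rich barcodes, Hba-x was -0.11 and Hba-a1 -1.29. Without cells with new somite genes, Hbb-y was -3.89, Hba-x -4.53, Hba-a1 -6.20 and the blood list -4.32. Matched by Hox genes, Hbb-y was -0.068 and Hba-a1 -1.45. Without cells with Etv2, Hbb-y was -4.02, Hba-x -4.73, Hba-a1 -5.87, Lmo2 -1.09 and the blood list -4.38. Without cells of another tissue, Kdr and Ets1 not counted, Lmo2 was -0.46, and without cells with an endothelial UMI other than Kdr it was -0.63.

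At E11.5 the differentiating muscle ratio of 7.77 was 9.59 with at least 2 Lbx1 UMIs, 7.37 thinned and 8.58 with cells of 10000 to 20000 UMIs, and Hox group 9 went from 2.24 to -0.997 with at least 2 Lbx1 UMIs, which left 3 cells.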

Other observations

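Hoxa11, a gene of the limb and the posterior trunk, had 13 UMIs in 7 of the 140 precursors, at most 4 in a cell, and none in the 946 comparison cells, at least 26.0-fold higher against a floor of 3 UMIs over the comparison cells. All 7 cells also held Kdr. The 8 precursors with a UMI of Hox groups 10 to 13 stood at 347 UPM of Lbx1 against 157 UPM in the other 132, and at 660 against 317 UPM of Pax3, on 41 and 78 UMIs; the rule that chose the cells used both genes, so these levels are a description.

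Asb4 lies among imprinted genes on chromosome 6. Of its neighbours, Casd1 had a log2 ratio of 1.01 (0.80 to 1.22) and Peg10 of 0.94 (0.75 to 1.12) over the comparison cells, while Sgce (0.28), Pon2 (0.47), Ppp1r9a (0.07), Col1a2 (-0.16) and Slc25a13 (-0.06) had intervals that held 0. These genes were chosen after their values were seen.

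Among other genes at least 2-fold higher in the precursors, also chosen after their values were seen, were the neurotrophin genes Bdnf (31 against 77 UMIs, log2 ratio 1.27) and Ntf3 (39 against 108, 1.12), the MAP kinase phosphatase genes Dusp5 (1.07) and Dusp9 (1.23), and the interferon-induced membrane protein gene Ifitm3 (66 against 173 UMIs). Its relative Ifitm1 was lower, with 121 against 2678 UMIs and a log2 ratio of -1.88 (-2.16 to -1.62).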
